A study of Mus musculus with 60 samples.

Results

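Collagen chains were followed across 6 tissues of aged mice. All genes whose mouse symbol is Col, a number, the letter a and a number were taken, which gave 44 of the 52636 genes counted. They were grouped by the collagen type they belong to: 11 fibrillar chains, 6 basement membrane chains (type IV), 9 chains of the fibril-associated collagens with interrupted triple helices (FACIT) and 18 other chains. Total RNA was sequenced from kidney, liver, lung, skeletal muscle, skin and spleen in 60 libraries, 10 per tissue. Treated 4F mice and untreated 4F mice were both heterozygous for the 4F cassette, a doxycycline-inducible polycistronic copy of the reprogramming factors Oct4, Sox2, Klf4 and Myc, and for R26::rtTA, the transactivator that doxycycline switches on, in the C57BL/6 background. For treated 4F mice the drinking water held doxycycline (1 mg/ml) for 2 days of each week, followed by 5 days without it, over 10 months from 12 to 22 months of age, and untreated 4F mice were 22 months old. Treated B6 mice are C57BL/6 mice without the cassette that received doxycycline from 20 to 25 months of age, for 5 months per the series text, although the treatment text of the labels gives 10 months for every sample and the labels name their treatment as for the 4F mice. Untreated B6 mice were 25 months old in the labels and 26 months old in the series text. Per tissue there were 3 treated and 3 untreated 4F libraries (1 male and 2 females in each arm) and 2 treated and 2 untreated B6 libraries, all male, so genotype cannot be told apart from age, length of treatment and, apart from the 4F males, sex. The 4F males were treated replicate 1 and untreated replicate 3 in every tissue. No label names an animal. The serial numbers in the titles run in 10 blocks of 6, each with 1 library of every tissue in the same tissue order, of 1 arm and 1 sex; the labels do not say what a block is. The p-values measure the spread between these samples, which may be technical.

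Collagens are trimers of alpha chains that wind into a triple helix. The fibrillar types I, II, III, V, XI, XXIV and XXVII are cut from procollagens outside the cell or on the way out of it and pack into cross-linked fibrils that carry tension in dermis, tendon and organ stroma, where fibroblasts are the main source of types I and III. Type IV forms the network of basement membranes under epithelia and endothelia and around muscle fibres, and its chains assemble as alpha1/alpha1/alpha2, alpha3/alpha4/alpha5 and alpha5/alpha5/alpha6 trimers. FACIT collagens sit on fibril surfaces. The remaining chains include the beaded filaments of type VI, the anchoring fibrils of type VII at the junction of epidermis and dermis, the transmembrane types XIII, XVII, XXIII and XXV, and the multiplexins XV and XVIII of basement membrane zones. In bulk tissue RNA, fewer cells of a type and less RNA per cell cannot be told apart.

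Library totals ran from 18517963 to 43176392 counts. Levels are given as RPKM (reads scaled to library size, as CPM, and divided by kilobases of union exon length), so chains can be set beside each other, and comparisons within 1 gene as CPM (counts scaled to library size); 1 SD over libraries follows ±. The summed markers of each labelled tissue were higher in every library of that tissue than in any library of another tissue. The margin was narrow for the skeletal muscle, keratinocyte and spleen lists. Skeletal muscle genes reached 102291 CPM in treated 4F skin replicate 3, against a lowest value of 105517 CPM in muscle. Keratinocyte genes were as low as 339 CPM in treated 4F skin replicate 3, against at most 213 CPM outside skin. Spleen genes were as low as 315 CPM in spleen and reached 242 CPM in untreated 4F lung replicate 1. Of the untreated libraries, 6 libraries stood apart in earlier results of these data for foreign-tissue transcripts, for sex-linked transcripts that go against the label or for their cell makeup (4F skin replicate 1, 4F muscle replicate 3, 4F lung replicate 2, 4F spleen replicate 2, and B6 liver and spleen replicate 2), and where the fold change of a member named with its values turned or moved by over 1.5 times without them, that value is given too. The most similar pair of libraries was treated B6 lung replicate 1 and untreated B6 lung replicate 2 (Pearson's r of 0.997 on log2 CPM across 13255 genes), which differed by more than sampling noise. Among the 44 genes, 10 share exon sequence with a gene on the other strand, among them Col4a1 with Col4a2, Col9a3 with Tcfl5 and Col10a1 with Nt5dc1; the strand setting of the counting is not given in the sources used here, so reads in those stretches cannot be assigned.

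Skin and lung held the highest levels of most collagen chains. Of the 44 members, 17 had their highest mean RPKM in skin, 12 in lung, 5 in kidney, 5 in spleen, 3 in muscle and 2 in liver. The skin count includes Col2a1, Col9a2 and Col10a1, which were near the floor there (0.0202, 0.063 and 0.0208 RPKM). A mean of at least 1 RPKM was reached by 27 members in lung, 23 in skin, 22 in kidney, 20 in spleen, 17 in muscle and 16 in liver. Of the genes best known from cartilage, Col2a1 (type II), Col10a1 (type X, of hypertrophic cartilage) and Col9a2 (type IX) passed the filter on low counts in no tissue. In liver, Col10a1, Col11a1 and Col19a1 had no count in any of the 10 libraries, which allows up to 3 counts of each library's total. Over all 44 members, collagen reads took a median of 0.299% of counts in skin and 0.297% in lung, against 0.192% in kidney, 0.129% in liver, 0.120% in spleen and 0.0663% in muscle. Skin had the widest spread of these shares, from 0.157% to 0.646%.

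Tissue differences were tested in 1 edgeR quasi-likelihood fit over all 60 libraries, each tissue against the mean of the other 5, with Benjamini-Hochberg adjustment over 19918 genes at a threshold of 0.05. Of the 44 members, 40 passed the filter on low counts. In skin 28 members were higher, where 32.9% of all genes were higher, and 5 were lower, where 27.8% of all genes were lower. In lung 18 members were higher (36.5% of all genes) and 9 lower (32.6%). In kidney 12 were higher (34.0%) and 15 lower (33.8%), and in muscle 12 were higher (32.7%) and 15 lower (44.0%). In spleen 9 were higher (39.6%) and 19 lower (36.6%). In liver 7 were higher (31.5%) and 27 lower (39.7%). Skin thus called 70.0% of the tested members higher and liver 67.5% of them lower. With the 30 untreated libraries only, 8 members were lower in kidney (23.0% of all genes) and 3 in skin (12.6%). Libraries of different tissues may come from the same mouse, which the labels do not record, so the samples of this fit may not be independent. With the serial block as a term in place of arm and sex, an alternative added after the data were seen, 26 members were higher in skin (32.5% of all genes) and 27 lower in liver (40.6%).

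**Figure D1:**
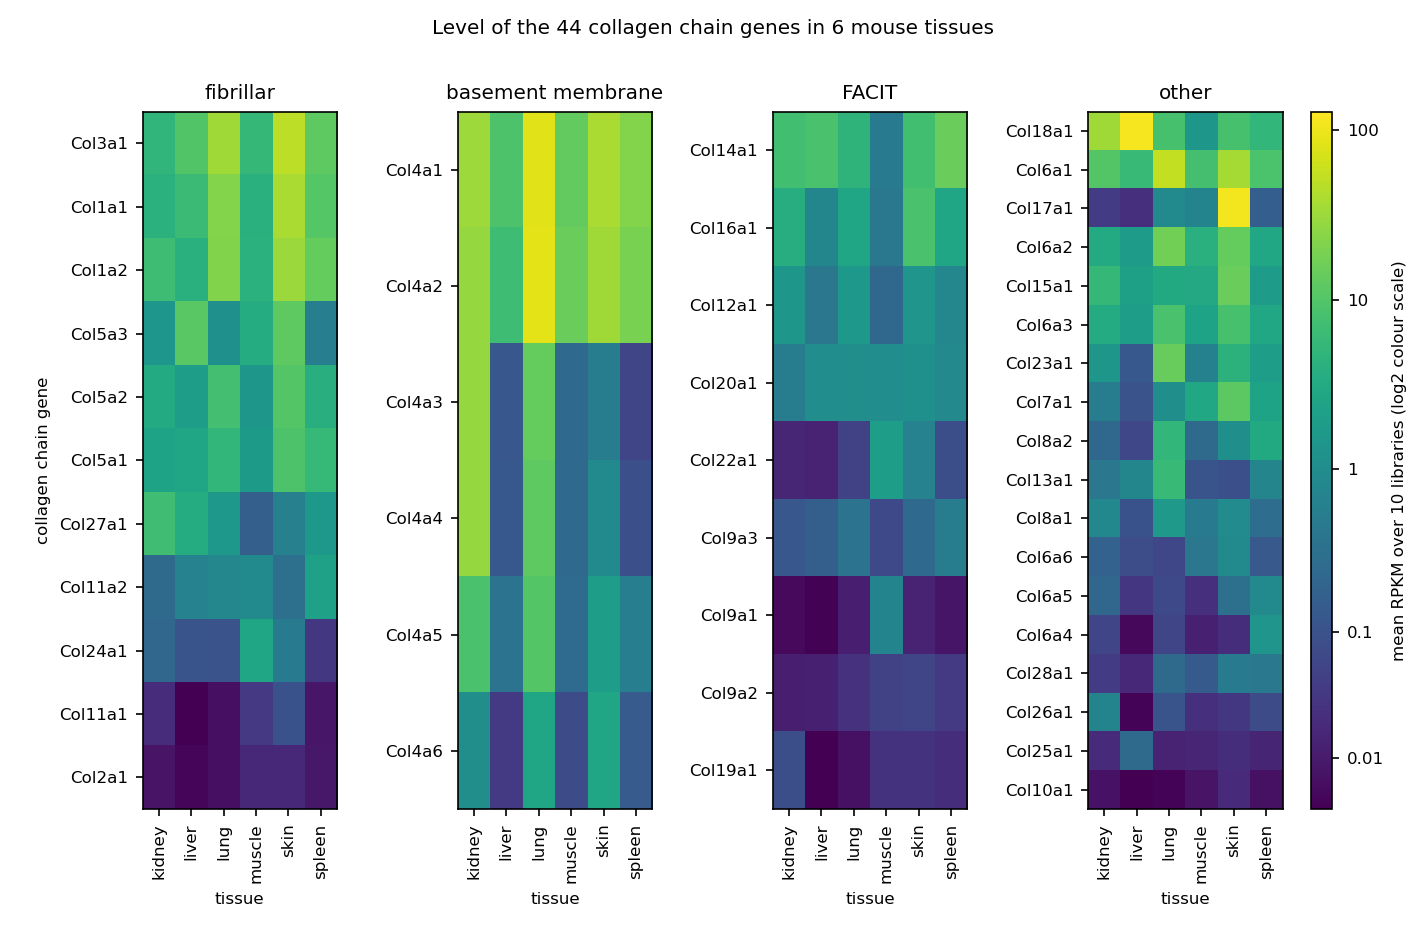
Level of each of the 44 collagen chains in the 6 tissues, as mean RPKM over 10 libraries per tissue, with chains grouped into fibrillar, basement membrane, FACIT and other. Col1a1 and Col3a1 were highest in skin (38.2 and 50.4 RPKM), Col4a1 in lung (84.5 RPKM), Col17a1 in skin and Col18a1 in liver.

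Among the fibrillar chains, the types I and III genes were highest in skin and next in lung. Col1a1 and Col1a2 encode the alpha chains of type I collagen, and Col3a1 the single chain of type III, which accompanies type I in distensible tissues. Col1a1 averaged 38.2 ± 31.9 RPKM in skin, 22.4 ± 12.5 in lung, 10.8 ± 3.83 in spleen, 6.23 ± 16.05 in liver, 4.15 ± 1.51 in kidney and 4.02 ± 2.33 in muscle (SD, n = 10 each). The liver mean was carried by 1 library: liver had a lowest value of 0.125, a median of 0.711 and a highest value of 51.7 RPKM, and untreated B6 replicate 2 was the highest. In skin Col1a1 had a lowest value of 2.77, a median of 28.1 and a highest value of 100.04 RPKM, a range that overlapped the lung range of 12.4 to 46.0. Neighbouring tissues in the order of Col1a1 levels overlapped at every step. Skin stood above the mean of the other tissues by a log2 difference of 2.53 ± 0.36 (SE) for Col1a1 (adjusted p = 3.4e-08, edgeR quasi-likelihood test) and 2.42 ± 0.34 for Col3a1 (adjusted p = 1.9e-08). Col3a1 followed the same tissues, with 50.4 ± 43.4 RPKM in skin, 33.3 ± 19.1 in lung and 12.1 ± 4.43 in spleen, and then 9.78 ± 20.9 in liver, 5.34 ± 3.25 in muscle and 5.10 ± 1.65 in kidney.

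Of the 11 fibrillar chains, 8 had their highest mean in skin. Type V chains, which join type I and help to start its fibrils, were led in skin by Col5a3, while Col5a1 averaged 9.23 ± 6.69 RPKM there and Col5a2 10.2 ± 9.52 RPKM. Col5a3 differed in liver: it averaged 11.4 ± 7.25 RPKM there, close to its 12.4 ± 10.996 RPKM in skin, whereas Col5a1 and Col5a2 averaged 2.62 and 1.97 RPKM in liver. The 3 exceptions to skin were Col24a1 with 2.57 ± 1.40 RPKM in muscle, Col27a1 with 7.04 ± 1.84 RPKM in kidney and Col11a2 with 2.20 ± 0.583 RPKM in spleen. Col24a1 was higher in muscle than in the other tissues by 5.02 ± 0.27 on the log2 scale (adjusted p = 2.7e-23, edgeR). Col24a1 and Col27a1 encode minor fibrillar chains, and Col11a2 a chain of type XI, best known from cartilage.

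The type IV genes were highest in lung or in kidney. Col4a1 and Col4a2, which make the alpha1/alpha1/alpha2 network found in nearly all basement membranes, were highest in lung, with 84.5 ± 34.0 and 85.3 ± 33.8 RPKM. Col4a1 averaged 38.0 ± 37.4 RPKM in skin, 31.6 ± 7.52 in kidney, 22.0 ± 7.32 in spleen and 13.4 ± 3.73 in muscle. With Col4a2 at 19.0 ± 4.57 RPKM in spleen and 14.6 ± 3.48 in muscle, this pair held the highest means of any member in both of those tissues. Both were detected in every library, down to 9.08 and 6.85 RPKM on average in liver. Col4a3 and Col4a4, whose products form the mature network of the kidney glomerulus and are also found in the lung alveolus, were highest in kidney, with 28.2 ± 7.55 and 29.1 ± 3.71 RPKM, and next in lung, with 13.8 ± 5.19 and 12.4 ± 4.05 RPKM. In the other 4 tissues both stayed under 1 RPKM on average, and spleen was lowest, with 0.0619 RPKM of Col4a3. Col4a5, the partner of both minor networks, averaged 10.2 ± 3.30 RPKM in lung, 8.56 ± 1.501 in kidney and 1.95 ± 0.923 in skin. Col4a6 averaged 2.58 ± 0.968 RPKM in lung, 2.57 ± 2.38 in skin and 1.05 ± 0.4659 in kidney.

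Kidney stood above the mean of the other tissues by 5.91 ± 0.24 on the log2 scale for Col4a3 (adjusted p = 1.1e-28, edgeR) and by 5.68 ± 0.21 for Col4a4 (adjusted p = 2.3e-30). Lung stood above the others by 1.61 ± 0.27 for Col4a1 (adjusted p = 6.5e-07) and 1.77 ± 0.24 for Col4a2 (adjusted p = 7.9e-09). The ranges of kidney and lung did not overlap for Col4a4, 22.5 to 32.6 against 7.35 to 20.4 RPKM, and did overlap for Col4a3, whose lowest kidney value was 20.1 and whose highest lung value was 23.0 RPKM.

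The 6 type IV genes lie in 3 pairs, each pair transcribed away from a shared start region. Col4a1 (ENSMUSG00000031502, minus strand, chr8:11198423-11312826 in GRCm38) and Col4a2 (ENSMUSG00000031503, plus strand, chr8:11312805-11449287) overlap by 22 bases at their first exons in the GENCODE vM21 annotation. Col4a4 (minus strand, chr1:82448423-82586849) and Col4a3 (plus strand, chr1:82586921-82722059) start 71 bases apart, and Col4a6 and Col4a5 on chromosome X start 1308 bases apart. The sequences below, from 250 bases before to 50 bases after the gene start in RefSeq (GRCm38.p6), show the shared start of the Col4a1 and Col4a2 pair, the start of Col4a4, and, for contrast, 2 fibrillar genes that have no such partner. Each is written 5′ to 3′ on its gene's strand. Capitals mark matches to the GC box (GGGCGG or CCGCCC), the CCAAT box (CCAAT or ATTGG) and the TATA box (TATAAA or TTTATA).
Col4a2 (chr8:11312555-11312854, plus strand): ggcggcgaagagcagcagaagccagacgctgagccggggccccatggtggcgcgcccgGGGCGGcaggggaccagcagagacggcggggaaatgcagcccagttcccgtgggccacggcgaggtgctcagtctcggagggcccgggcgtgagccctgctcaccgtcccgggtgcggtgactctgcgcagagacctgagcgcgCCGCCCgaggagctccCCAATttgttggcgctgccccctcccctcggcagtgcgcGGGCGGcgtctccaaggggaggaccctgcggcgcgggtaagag
Col4a1 (chr8:11312777-11313076, minus strand): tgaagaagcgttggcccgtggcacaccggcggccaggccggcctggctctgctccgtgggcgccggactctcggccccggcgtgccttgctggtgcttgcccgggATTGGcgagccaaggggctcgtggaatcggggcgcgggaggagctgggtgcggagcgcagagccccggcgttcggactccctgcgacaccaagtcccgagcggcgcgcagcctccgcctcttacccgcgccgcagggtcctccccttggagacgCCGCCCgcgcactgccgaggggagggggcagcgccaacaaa
Col4a4 (chr1:82586800-82587099, minus strand): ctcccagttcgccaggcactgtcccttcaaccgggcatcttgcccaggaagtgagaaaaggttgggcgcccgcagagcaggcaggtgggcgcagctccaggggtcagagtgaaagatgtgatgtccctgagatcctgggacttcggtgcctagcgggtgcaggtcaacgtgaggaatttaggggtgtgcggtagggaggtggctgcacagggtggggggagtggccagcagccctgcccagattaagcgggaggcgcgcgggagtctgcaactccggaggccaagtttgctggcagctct
Col1a2 (chr6:4505368-4505667, plus strand): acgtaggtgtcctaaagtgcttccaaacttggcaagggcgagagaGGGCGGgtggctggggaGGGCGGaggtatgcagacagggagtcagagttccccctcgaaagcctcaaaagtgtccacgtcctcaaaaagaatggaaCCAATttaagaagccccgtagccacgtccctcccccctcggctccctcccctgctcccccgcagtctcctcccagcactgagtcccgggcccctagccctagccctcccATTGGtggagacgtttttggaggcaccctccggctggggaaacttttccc
Col3a1 (chr1:45311288-45311587, plus strand): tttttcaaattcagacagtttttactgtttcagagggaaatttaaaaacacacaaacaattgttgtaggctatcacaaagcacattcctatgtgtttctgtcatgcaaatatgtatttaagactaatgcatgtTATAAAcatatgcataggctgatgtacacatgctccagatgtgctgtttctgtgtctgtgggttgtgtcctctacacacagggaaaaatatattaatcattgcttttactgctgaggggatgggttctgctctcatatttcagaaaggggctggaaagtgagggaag

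The Col4a1 and Col4a2 windows share 78 bases, chr8:11312777-11312854, which read as the reverse complement of each other, with 1 GC box match and no CCAAT match in the shared stretch. Windows were found for 35 of the 44 genes, 38 windows in all. The GC box letters, on either strand, were in 23 of these 38 windows (60.5%) and in 35.7% of 32851 windows of all genes. The CCAAT letters were in 13 (34.2%, against 37.4% of all windows) and the TATA letters in 5 (13.2%, against 13.6%). Median GC content was 59.8% in the collagen windows and 52.7% in all windows, and the GC box is itself made of G and C. A match describes the letters in the window and says nothing of a factor bound there.

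The chains of the type IV alpha1/alpha1/alpha2 trimer kept a near-constant ratio across tissues. The RPKM ratio of Col4a1 to Col4a2 had a median of 1.056 over the 60 libraries and stayed between 0.750 and 1.42, while Col4a1 itself ranged 82.3-fold, from 1.78 to 147 RPKM. Col4a3 to Col4a4 had a median of 0.795 in the 54 libraries with at least 10 counts of both, with a range of 0.371 to 3.29. Across trimers the ratio differed by tissue: Col4a1 to Col4a3 had a median of 1.13 in kidney, 5.88 in lung and 297 in spleen. The ratio of Col4a5 to Col4a6 had a median of 8.62 in kidney and 0.855 in skin. Among fibrillar chains, the ratio of Col1a1 to Col1a2 had a median of 0.877 and a range of 0.329 to 1.77, and that of Col1a1 to Col3a1 a median of 0.746 and a range of 0.216 to 1.44. Col5a1 to Col5a2 had a median of 1.04 over all libraries and 3.51 in liver. For type VI, the ratio of Col6a1 to Col6a2 had a median of 2.95 and a range of 1.70 to 9.05. These ratios describe points that share libraries and tissues, and no test was made of them.

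**Figure D2:**
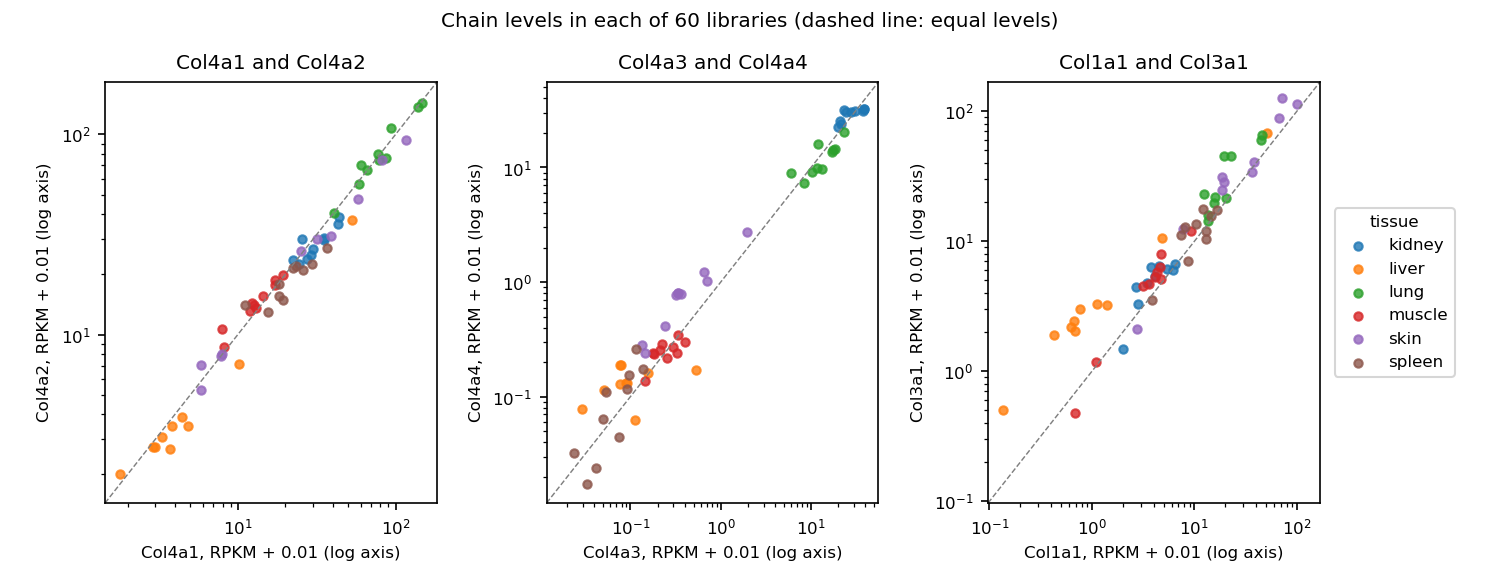
Level of 1 collagen chain against another in each of the 60 libraries, in RPKM + 0.01 on log axes, for Col4a1 and Col4a2, Col4a3 and Col4a4, and Col1a1 and Col3a1, coloured by tissue. Col4a1 and Col4a2 lie along the line of equal levels from 1.78 to 147 RPKM of Col4a1, with ratios between 0.750 and 1.42, and Col4a3 and Col4a4 separate kidney and lung from the other tissues.

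The FACIT chains had no common tissue. Of the 9, 3 had their highest mean in skin, 2 in muscle, 2 in spleen, 1 in kidney and 1 in lung. Several of these placements were near the floor or nearly tied. Col19a1 averaged 0.0869 RPKM in kidney, and Col9a2 0.063 in skin against 0.0514 in muscle. Col20a1 averaged 1.14 RPKM in skin against 1.07 in lung. Col14a1, whose product type XIV coats type I fibrils, was highest in spleen, with 14.8 ± 5.03 RPKM, against 8.53 ± 9.20 in liver, 7.43 ± 2.52 in kidney, 7.19 ± 4.59 in skin, 4.69 ± 1.11 in lung and 0.468 ± 0.322 in muscle. Col16a1 (type XVI) was highest in skin, with 8.45 ± 4.15 RPKM, and Col12a1, of the tendon and stroma collagen XII, in lung and kidney, with 1.53 and 1.48 RPKM. Col22a1, of the collagen of myotendinous junctions, averaged 1.95 ± 0.655 RPKM in muscle and 0.649 ± 0.216 in skin, and was higher in muscle than in the other tissues by 5.76 ± 0.22 on the log2 scale (adjusted p = 3.5e-30, edgeR). Col9a1 (type IX), best known from cartilage, averaged 0.714 ± 0.268 RPKM in muscle and no more than 0.0155 RPKM in any other tissue. The other type IX chains did not share this pattern, with 0.0514 RPKM of Col9a2 and 0.0695 RPKM of Col9a3 in muscle.

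A pair of chains outside these classes had the highest levels of all. Col18a1, the heparan sulfate proteoglycan collagen whose C-terminal fragment is endostatin, averaged 113 ± 26.0 RPKM in liver and 33.6 ± 8.33 in kidney, and its liver range of 52.6 to 157 RPKM lay above the kidney range of 21.4 to 47.7. Liver stood above the mean of the other tissues by 4.72 ± 0.17 on the log2 scale (adjusted p = 1.0e-31, edgeR). Col17a1, the transmembrane collagen of keratinocyte hemidesmosomes, averaged 110.3 ± 104 RPKM in skin and 0.885 ± 0.994 RPKM in lung, the next tissue. In skin it had a lowest value of 11.5, a median of 85.6 and a highest value of 335 RPKM, and its log2 difference from the other tissues was 9.23 ± 0.40 (adjusted p = 3.6e-27, edgeR). Summed keratinocyte markers ranged from 339 to 13699 CPM over the same skin libraries, and their part in the spread of Col17a1 was not tested.

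Several others were at least 4 times higher in 1 tissue than in the next. Col7a1, of the anchoring fibrils that fix the epidermis to the dermis, averaged 11.8 ± 7.23 RPKM in skin and 2.86 ± 0.668 in muscle. Col13a1 (transmembrane type XIII) averaged 5.74 ± 2.35 RPKM in lung, and Col6a4, a type VI chain, 1.39 ± 0.577 RPKM in spleen, where the next tissue had 0.0618. Col26a1 averaged 0.702 ± 0.356 RPKM in kidney. These, with Col17a1 in skin and Col9a1 and Col24a1 in muscle, were all the members with a mean of at least 0.5 RPKM that met this ratio. The ranges of the first and second tissue did not overlap for Col7a1, Col13a1, Col17a1, Col6a4, Col26a1 and Col9a1, and did overlap for Col24a1. The tissue differences of Col7a1 (3.75 ± 0.18), Col13a1 (3.72 ± 0.23), Col6a4 (5.69 ± 0.30) and Col26a1 (4.54 ± 0.22, log2) all passed the edgeR test.

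The main type VI chains, which form beaded filaments next to cells and basement membranes, were highest in lung and next in skin. Col6a1 averaged 54.0 ± 10.9 RPKM in lung, 35.7 ± 23.6 in skin and 7.92 ± 3.02 in muscle, where it was next to the major type IV pair. In lung and in skin Col6a2 averaged 17.1 and 13.9 RPKM, and Col6a3 8.35 and 8.16. The 3 genes of the alternative chains lie in a row on 1 strand of chromosome 9 and differed in tissue: Col6a4 and Col6a5 were highest in spleen and Col6a6 in skin (0.882 ± 0.516 RPKM). Col23a1, a transmembrane collagen, averaged 14.3 ± 4.88 RPKM in lung and 4.42 ± 2.66 in skin. Col15a1, the multiplexin of vessel and muscle basement membranes, averaged 14.7 ± 16.1 RPKM in skin and 5.47 ± 2.09 in kidney. The type VIII chains, of short-chain networks, were both highest in lung, with 1.68 RPKM of Col8a1 and 5.22 RPKM of Col8a2.

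The treatment question was asked within each tissue and genotype: does doxycycline, which acts on the cassette in 4F mice and has no cassette to act on in B6 mice, go with other collagen levels than no treatment. No collagen chain passed the adjusted edgeR test in any tissue. Over the 6 tissues there were 224 member tests among 107270 gene tests. In 4F mice 0 of 224 were called, where 0.000932% of all gene tests were called, and in B6 mice and for the difference between genotypes 0 of 224, where 0.0% and 0.0% of all were called. The smallest adjusted p of a member was 0.389 in 4F mice, 0.4995 in B6 mice and 0.494 for the difference. At an unadjusted p under 0.05, 4F mice had 3 members of 38 in kidney (5.13% of all genes), 1 of 33 in liver (1.79%), 0 of 37 in lung (6.04%), 5 of 40 in muscle (9.19%), 3 of 39 in skin (12.4%) and 3 of 37 in spleen (3.91%). B6 mice had 0 in kidney (3.89%), 8 in liver (9.39%), 0 in lung (0.353%), 0 in muscle (6.18%), 0 in skin (7.87%) and 1 in spleen (6.31%). DESeq2 called 1 member in 4F mice, Col14a1 in muscle (0.716% of all gene tests, and 0.524% of muscle genes), and 0 in B6 mice (0.313%) and for the difference (0.174%). With 3 or 2 libraries per arm and the spread between them, an absent call does not show that levels were alike. Where arms are said below not to overlap, the share of all genes that did so is given for 4F muscle and 4F liver only. With 2 libraries per B6 arm, many genes separate the arms without any effect, so such a separation is a description only.

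Muscle was the tissue in which the members' log2 fold changes were most often above 0 in 4F mice. Of 40 members tested, 37 were above 0, with a median of 0.65, against -0.036 over all genes. In the other tissues the 4F medians were 0.49 in liver, 0.076 in skin, 0.052 in kidney, -0.058 in lung and -0.16 in spleen. In B6 mice the medians were 0.26 in muscle (32 of 40 above 0), 0.19 in spleen, 0.095 in lung, -0.13 in kidney, -0.41 in skin and -0.75 in liver. These counts and medians describe members measured in the same libraries and carry no test.

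**Figure D3:**
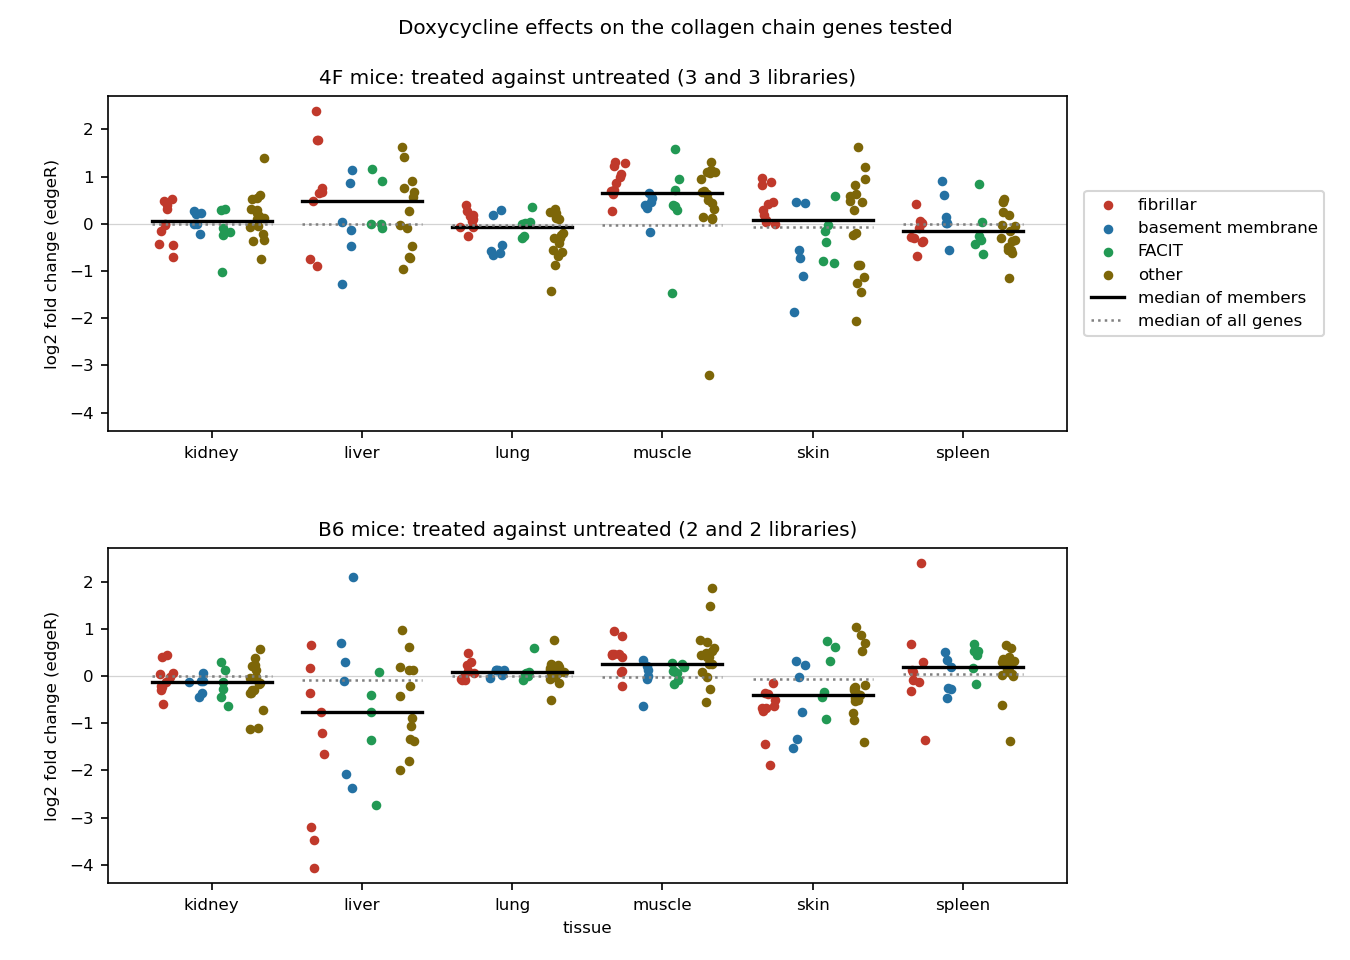
Log2 fold change of doxycycline over no treatment for each tested collagen chain, by tissue and class, in 4F and B6 mice; black marks are the medians of the members and dotted lines the median of all genes. In 4F muscle 37 of 40 members lie above 0, with a median of 0.65, and in B6 skin all 10 fibrillar members lie below 0.

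In 4F muscle, all 10 tested fibrillar chains had fold changes above 0 (median 0.93), as did 5 of 6 basement membrane chains (median 0.42), 7 of 8 FACIT chains (median 0.39) and 15 of 16 other chains (median 0.66). The 3 treated libraries lay wholly above the 3 untreated ones for 9 of the 40 members, where 3.49% of all genes did so. Col1a1 had 60.3, 31.2 and 30.1 CPM in treated 4F muscles, against 20.7, 4.45 and 28.6 CPM in untreated 4F muscles. Treated replicate 1 was the highest and untreated replicate 2 the lowest, and the arms met at 28.6 and 30.1 CPM without overlap; the log2 fold change was 1.28 ± 0.67 (SE), with an adjusted p of 0.574 (edgeR). Col3a1 had 118, 50.2 and 61.8 CPM in treated 4F muscles, against 44.1, 4.62 and 56.7 CPM in untreated 4F muscles. Its arms overlapped, and its log2 fold change was 1.22 ± 0.88 (adjusted p = 0.624, edgeR). Col5a2, a type V chain, had 23.9, 16.9 and 14.6 CPM in treated 4F muscles, against 11.5, 8.23 and 16.8 CPM in untreated 4F muscles (0.70 ± 0.26 log2). Col27a1 had 1.98, 3.10 and 2.84 CPM in treated 4F muscles, against 1.99, 1.54 and 1.08 CPM in untreated 4F muscles (0.87 ± 0.27 log2), and treated replicate 1 sat beside the highest untreated library.

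The smallest p of any member belonged to Col14a1 in 4F muscle. It had 7.64, 4.51 and 4.82 CPM in treated 4F muscles, against 1.38, 0.843 and 5.80 CPM in untreated 4F muscles. Untreated replicate 3 was within the treated range, and the other untreated libraries were low. Its log2 fold change was 1.58 ± 0.37, with an unadjusted p of 0.00284, an adjusted p of 0.540 by edgeR and 0.0468 by DESeq2. Col6a6, an alternative type VI chain, had 5.72, 2.39 and 3.57 CPM in treated 4F muscles, against 2.15, 1.51 and 1.90 CPM in untreated 4F muscles. All treated libraries were above all untreated ones, with a log2 fold change of 1.09 ± 0.40 and an adjusted p of 0.540 (edgeR). Col4a1 had 97.1, 127 and 144 CPM in treated 4F muscles, against 128, 59.4 and 60.7 CPM in untreated 4F muscles, where untreated replicate 1 reached the treated range (0.66 ± 0.30 log2, adjusted p = 0.554, edgeR).

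**Figure D4:**
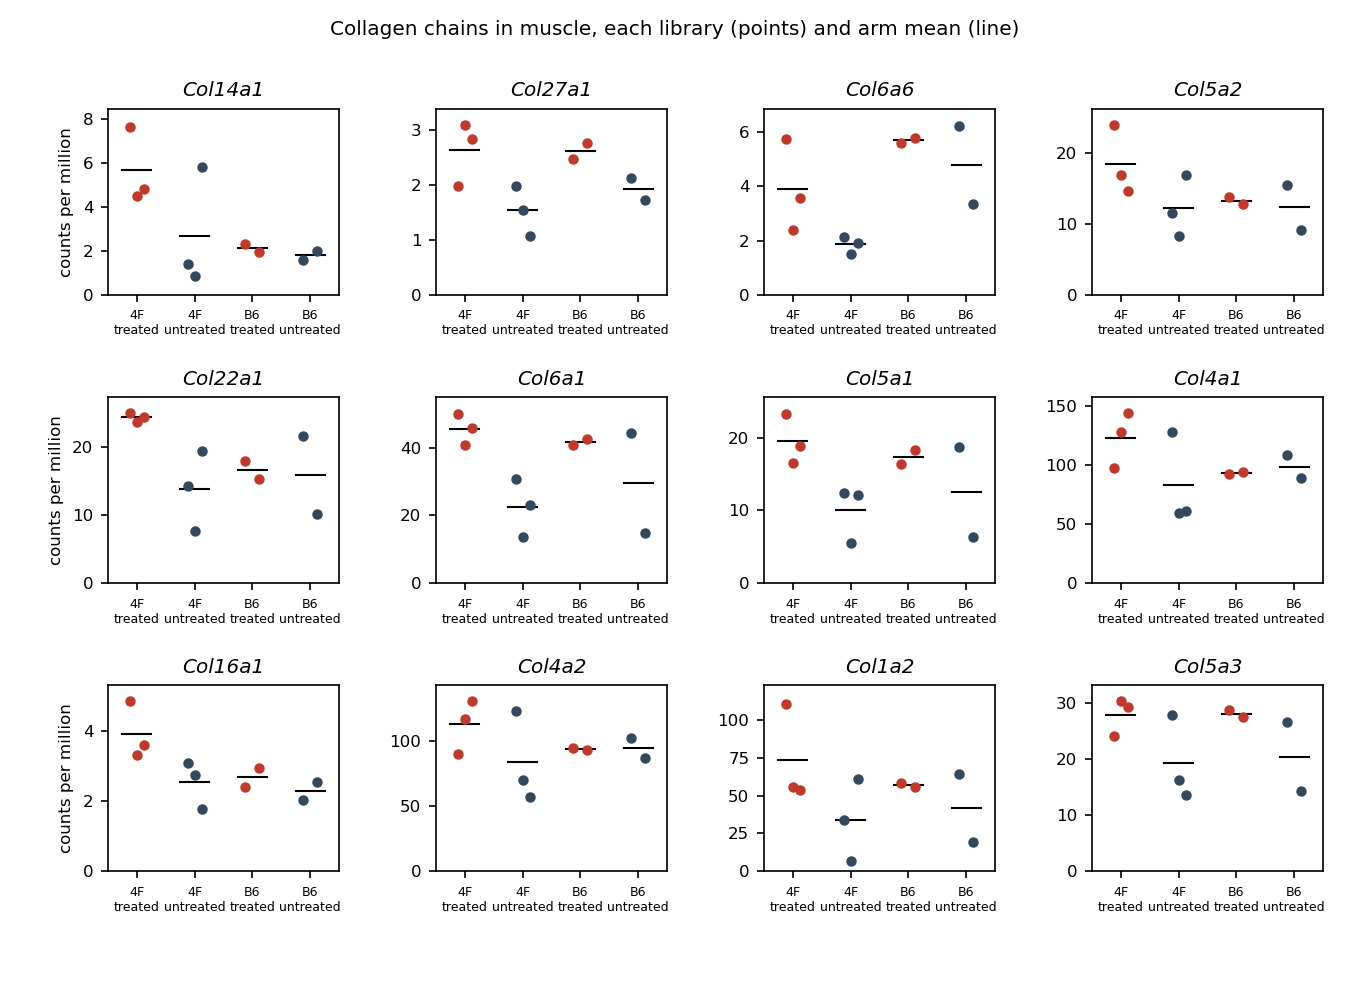
CPM of the 12 collagen chains with the smallest unadjusted p in 4F muscle and a mean of at least 1 CPM, in treated and untreated 4F muscle libraries (3 each) and treated and untreated B6 muscle libraries (2 each); points are libraries and bars arm means. Col14a1 had 7.64, 4.51 and 4.82 CPM in treated 4F muscle, against 1.38, 0.843 and 5.80 CPM in untreated 4F muscle, of which replicate 3 was within the treated range.

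Markers of stromal and other cells are set beside these chains for 4F muscle. Summed fibroblast markers (8 genes, all with fold changes above 0) were 1255, 724 and 1164 CPM in treated 4F muscles, against 489, 351 and 881 CPM in untreated 4F muscles, so that 1 of 3 untreated libraries was within the treated range. Adipocyte markers (5 genes) were 224, 55.9 and 79.3 CPM in treated 4F muscles, against 19.0, 12.6 and 201 CPM in untreated 4F muscles, and tendon cell markers (5 genes) were 115, 47.9 and 49.9 CPM in treated 4F muscles, against 52.2, 19.6 and 59.9 CPM in untreated 4F muscles. Endothelial markers (6 genes) were 257, 475 and 361 CPM in treated 4F muscles, against 518, 428 and 195 CPM in untreated 4F muscles, with no shift to the treated side. Liver transcripts were present too: hepatocyte markers (6 genes) were 2.75, 419.6 and 242 CPM in treated 4F muscles, against 0.192, 44.3 and 1.57 CPM in untreated 4F muscles. Keratinocyte markers reached 213 CPM in untreated 4F muscle replicate 2, their highest sum in any library outside skin. Col17a1, the collagen of keratinocyte hemidesmosomes, had a 4F muscle fold change of -3.20 (log2), and -5.15 without untreated replicate 3. The part of all these markers in the collagen differences was not tested. Untreated replicate 3, which had stood apart, and treated replicate 1 are the males of these arms. Because sex is in the model, a fit without either male compares only the female libraries of these arms. The 4F muscle median was 0.43 without untreated replicate 3 and 0.41 without treated replicate 1. Over all fits with 1 library left out it ran from 0.41 to 0.96. In B6 muscle 9 of 10 fibrillar chains were above 0 (median 0.45), with Col1a1 at 26.9 and 23.7 CPM in treated B6 muscles, against 30.8 and 7.12 CPM in untreated B6 muscles. The treated B6 libraries lay between the untreated ones, and without untreated replicate 2 the Col1a1 fold change was -0.33 where it was 0.40 with all libraries. Col3a1 had 52.5 and 45.7 CPM in treated B6 muscles, against 78.7 and 11.6 CPM in untreated B6 muscles (0.092 ± 1.07 log2) and Col4a1 91.9 and 93.7 CPM in treated B6 muscles, against 108 and 88.6 CPM in untreated B6 muscles (-0.063 ± 0.37 log2), with the treated libraries again between the untreated ones. The arms did not overlap for the members of smallest p in B6 muscle, Col7a1 with 35.1 and 44.8 CPM in treated B6 muscles, against 30.01 and 29.5 CPM in untreated B6 muscles (0.45 ± 0.24 log2) and Col11a2 with 9.93 and 7.55 CPM in treated B6 muscles, against 6.26 and 2.77 CPM in untreated B6 muscles (0.95 ± 0.54 log2).

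In 4F liver 19 of 33 members had fold changes above 0 (median 0.49, all genes 0.0049), and the fibrillar median was 0.67. The median over all members was 0.28 without the filter on low counts and 0.26 with 4F libraries alone. For 9 of 33 members the treated libraries lay wholly above the untreated ones, where 5.87% of all genes did so. Col1a1 had 7.27, 4.94 and 31.7 CPM in treated 4F livers, against 4.04, 0.819 and 2.71 CPM in untreated 4F livers. The arms did not overlap, but treated replicate 3 was far above the other treated libraries, and the log2 fold change of 2.38 ± 1.35 had an adjusted p of 1.00 (edgeR). Col1a2 had 16.2, 15.05 and 45.9 CPM in treated 4F livers, against 9.72, 4.71 and 6.54 CPM in untreated 4F livers (1.78 ± 0.99 log2) and Col3a1 32.2, 29.7 and 104 CPM in treated 4F livers, against 21.5, 4.84 and 18.7 CPM in untreated 4F livers (1.78 ± 1.07 log2). In each of them treated replicate 3 was the highest library, and without it the fold changes were 1.14 for Col1a1, 1.12 for Col1a2 and 0.95 for Col3a1. Col4a1 had 36.2, 28.5 and 75.4 CPM in treated 4F livers, against 22.2, 13.3 and 27.5 CPM in untreated 4F livers (1.13 ± 0.80 log2) and Col6a2 8.38, 7.62 and 23.4 CPM in treated 4F livers, against 4.07, 4.30 and 5.86 CPM in untreated 4F livers (1.41 ± 0.77 log2). Their arms did not overlap either, with treated replicate 3 again the highest. Col16a1 was more even, with 4.52, 6.85 and 7.09 CPM in treated 4F livers, against 3.35, 2.46 and 3.68 CPM in untreated 4F livers, a log2 fold change of 0.90 ± 0.38 and an unadjusted p of 0.0465. Summed fibroblast markers were 261, 253 and 444 CPM in treated 4F livers, against 219.5, 364 and 264 CPM in untreated 4F livers. The liver chain Col18a1 had 901, 758 and 858 CPM in treated 4F livers, against 776, 1099.7 and 754 CPM in untreated 4F livers (-0.09 ± 0.49 log2).

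In B6 liver the fold changes of the members named here rested on 1 library. Col1a1 had 9.25 and 4.40 CPM in treated B6 livers, against 4.29 and 339.6 CPM in untreated B6 livers, and Col1a2 had 12.1 and 10.1 CPM in treated B6 livers, against 9.18 and 364 CPM in untreated B6 livers. Untreated replicate 1 lay level with the treated libraries and replicate 2 was far higher. Col3a1 had 31.4 and 19.8 CPM in treated B6 livers, against 23.7 and 675 CPM in untreated B6 livers, Col4a1 33.1 and 21.5 CPM in treated B6 livers, against 24.6 and 396 CPM in untreated B6 livers and Col5a1 14.5 and 8.50 CPM in treated B6 livers, against 13.6 and 89.6 CPM in untreated B6 livers, each high in that library alone. The fold changes were -4.06 ± 1.72 for Col1a1 and -3.47 ± 1.29 for Col1a2 (log2, adjusted p = 0.4995 for both, edgeR); without that library they were 0.66 and 0.28. For Col3a1, Col4a1 and Col5a1 they were -3.19 ± 1.35, -2.38 ± 1.00 and -1.66 ± 0.60 with it, and 0.11, 0.15 and -0.25 without it; the median of all members was 0.11 where it was -0.75 with it. Without untreated replicate 1, which left replicate 2 alone in its arm and assumed to vary like the other groups, 16 of 35 members passed, where 34.7% of all genes passed, and 20 of 35 passed for the difference between genotypes (32.2% of all genes). In untreated replicate 2 fibroblast markers summed to 994 CPM, against 228 and 247 CPM in treated B6 livers and 234 CPM in the other untreated one, endothelial markers to 592 CPM, against 179 and 177 CPM in treated livers, and hepatocyte markers to 52872 CPM, against 121837 and 148843 CPM in treated livers.

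Skin had wide spreads within arms. Col1a1 had 657, 122 and 250.04 CPM in treated 4F skin, against 474, 18.2 and 242 CPM in untreated 4F skin, so each arm held high and low libraries (0.41 ± 1.19 log2). Col3a1 had 1109, 308 and 403 CPM in treated 4F skin, against 1251, 20.8 and 335 CPM in untreated 4F skin and Col4a1 608, 238 and 431 CPM in treated 4F skin, against 871, 43.6 and 188 CPM in untreated 4F skin, with untreated replicate 1 the highest and untreated replicate 2 the lowest of the 6 for both (0.18 ± 1.35 and 0.45 ± 1.09 log2). Without untreated replicate 1 the fold changes were 2.71 for Col1a1, 3.23 for Col3a1 and 2.60 for Col4a1. Without untreated replicate 1 the median over all members was 0.98, against 0.076 with all libraries, and 1 member of 39, Col14a1, passed the adjusted edgeR test, where 3.79% of all genes passed. Of the named members, Col4a5 had 13.1, 5.44 and 5.67 CPM in treated 4F skin, against 10.8, 25.9 and 19.6 CPM in untreated 4F skin (-1.12 ± 0.38 log2, adjusted p = 0.389, edgeR). Its treated replicate 1 was within the untreated range. Col24a1 had 4.73, 5.02 and 5.09 CPM in treated 4F skin, against 3.18, 2.60 and 3.56 CPM in untreated 4F skin (0.89 ± 0.34 log2) and the arms did not overlap, and Col8a2 had 4.24, 1.57 and 2.34 CPM in treated 4F skin, against 6.29, 14.6 and 4.53 CPM in untreated 4F skin (-1.44 ± 0.61 log2), where they lay close. Col28a1 (type XXVIII) had 4.39, 2.14 and 3.42 CPM in treated 4F skin, against 2.40, 2.00 and 1.98 CPM in untreated 4F skin (0.83 ± 0.37 log2), with treated replicate 2 inside the untreated range. Col24a1 had its highest mean in muscle, and skeletal muscle markers were 53643, 92766 and 102291 CPM in treated 4F skin, against 47823, 77412 and 54709 CPM in untreated 4F skin. Keratinocyte markers (6 genes, all with fold changes below 0) were 5013, 1946 and 339 CPM in treated 4F skin, against 1095, 13699 and 12409 CPM in untreated 4F skin. Kidney markers reached 4385 CPM in untreated replicate 1 and at most 40.5 CPM in treated 4F skin. The part of these markers in the collagen values was not tested.

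In B6 skin all 10 tested fibrillar chains had fold changes below 0 (median -0.65). Col1a1 had 127 and 121 CPM in treated B6 skin, against 444 and 50.7 CPM in untreated B6 skin and Col3a1 279 and 245 CPM in treated B6 skin, against 871 and 123 CPM in untreated B6 skin, both with the treated libraries between the untreated ones (-0.75 ± 1.41 and -0.67 ± 1.56 log2). Col4a1 had 58.6 and 43.6 CPM in treated B6 skin, against 291 and 59.3 CPM in untreated B6 skin, where untreated replicate 2 was level with the treated libraries (-1.53 ± 1.30 log2). Col16a1 had 38.4 and 20.3 CPM in treated B6 skin, against 52.1 and 83.0 CPM in untreated B6 skin and Col27a1 had 4.52 and 4.66 CPM in treated B6 skin, against 7.29 and 10.3 CPM in untreated B6 skin. Their arms did not overlap, with log2 fold changes of -0.91 ± 0.43 and -0.63 ± 0.32 and an adjusted p of 0.636 and 0.656 (edgeR). Adipocyte markers in these libraries summed to 438 and 41.2 CPM in treated B6 skin, against 2881 and 502 CPM in untreated B6 skin, and their part in these values was not tested. With either untreated library left out the median of all members ran from -0.56 to 0.46.

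**Figure D5:**
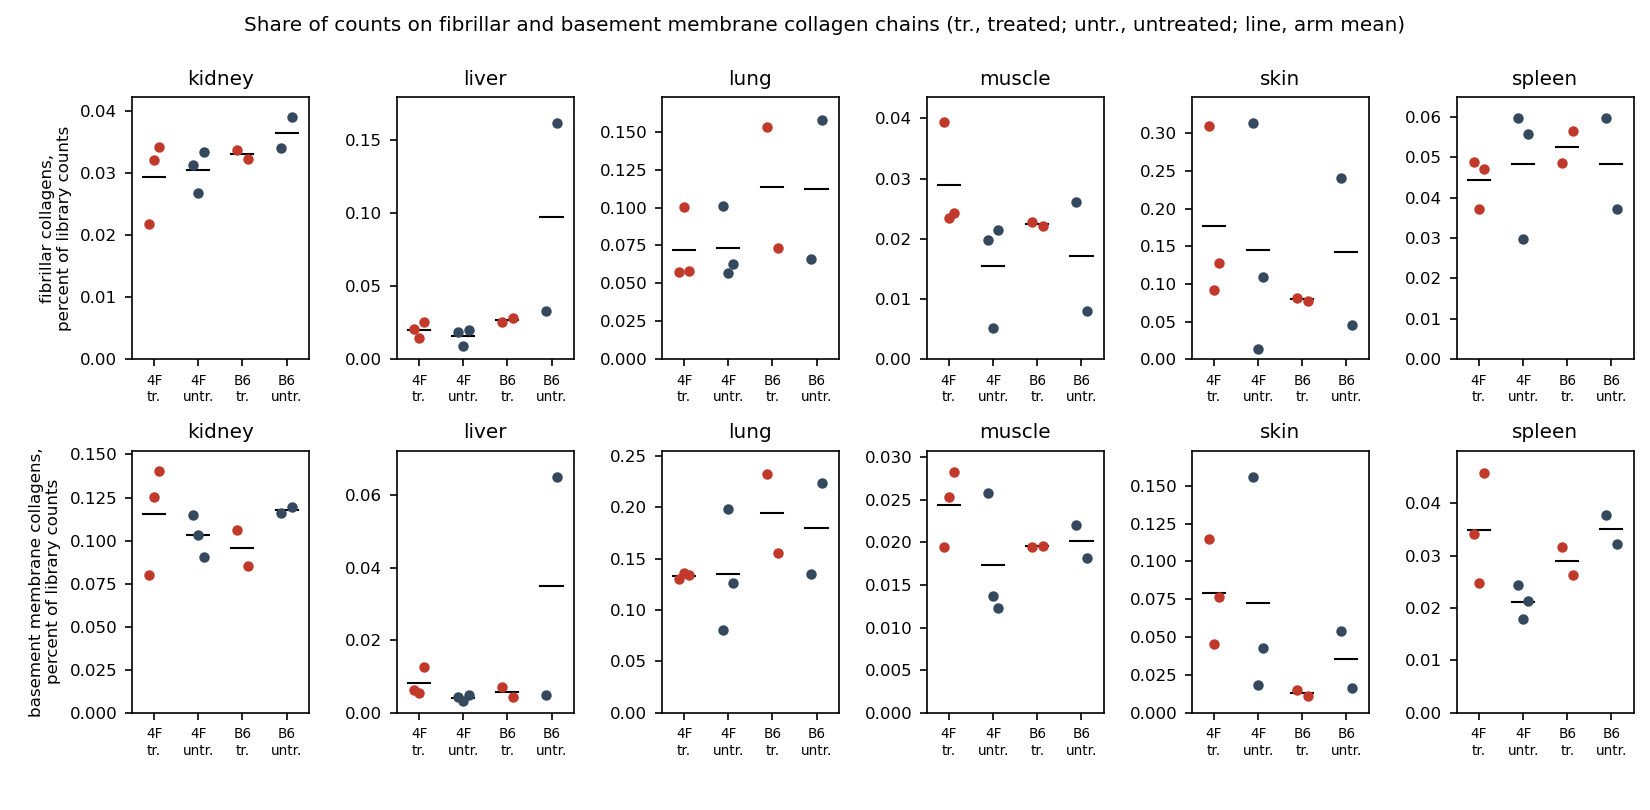
Percent of each library's counts taken by the fibrillar and by the basement membrane collagen genes, per library, with treated libraries left of untreated ones in each genotype and tissue. In liver untreated B6 replicate 2 stands at 0.161% for fibrillar chains, where the other 9 libraries lie between 0.0093% and 0.0326%, and skin spans 0.0140% to 0.313%.

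In 4F spleen the major type IV chains had the smallest p-values. Col4a1 had 193, 144 and 273 CPM in treated 4F spleens, against 136, 82.6 and 117 CPM in untreated 4F spleens, and the arms did not overlap. Its log2 fold change was 0.91 ± 0.28 (unadjusted p = 0.0122, adjusted p = 0.991, edgeR). Col4a2, its trimer partner, had 139, 98.7 and 179.6 CPM in treated 4F spleens, against 103, 92.4 and 86.2 CPM in untreated 4F spleens (0.61 ± 0.24 log2), with treated replicate 2 inside the untreated range. The type VI chain Col6a1 had 39.6, 24.5 and 24.2 CPM in treated 4F spleens, against 43.3, 43.3 and 49.6 CPM in untreated 4F spleens (-0.61 ± 0.25 log2) and no overlap. Col18a1 had 47.8, 29.5 and 48.8 CPM in treated 4F spleens, against 26.4, 34.6 and 28.6 CPM in untreated 4F spleens (0.53 ± 0.23 log2). Col3a1 had 133, 109.8 and 127 CPM in treated 4F spleens, against 170.1, 34.8 and 174 CPM in untreated 4F spleens; untreated replicate 2 was low, and without it the log2 fold change was -0.40 where it was 0.054 with all libraries. Col1a1 had 68.0, 48.1 and 52.7 CPM in treated 4F spleens, against 109.6, 25.2 and 79.5 CPM in untreated 4F spleens (-0.31 ± 0.46 log2, -0.69 without that library). Untreated replicate 2 also held 2559 CPM of pancreatic acinar markers, against at most 43.5 CPM in treated 4F spleens. Endothelial markers were 515, 344 and 535 CPM in treated 4F spleens, against 299, 494 and 388 CPM in untreated 4F spleens, which overlapped. In B6 spleen Col4a1 had 168 and 135 CPM in treated B6 spleens, against 219 and 174 CPM in untreated B6 spleens, without overlap (-0.47 ± 0.34 log2), and Col5a1 had 24.7 and 23.1 CPM in treated B6 spleens, against 33.9 and 75.1 CPM in untreated B6 spleens (-1.36 ± 0.55 log2, adjusted p = 0.701, edgeR). Without untreated replicate 2, which stood apart and was the highest for Col5a1, its fold change was -0.48. Col16a1 had 23.4 and 26.9 CPM in treated B6 spleens, against 20.4 and 12.2 CPM in untreated B6 spleens (0.54 ± 0.28 log2, 0.32 without that library) and no overlap. For Col1a1, with 84.7 and 85.7 CPM in treated B6 spleens, against 95.0 and 57.5 CPM in untreated B6 spleens, the fold change was 0.076 ± 0.56 (log2, -0.13 without it). For Col3a1, with 102 and 117 CPM in treated B6 spleens, against 154 and 69.5 CPM in untreated B6 spleens, it was -0.094 ± 0.62 (log2, -0.47 without it). With untreated replicate 1 left out instead, the arm held only the library that stood apart, assumed to vary like the other groups, and 1 member of 39 (Col6a5, adjusted p = 0.0462, edgeR) passed, where 11.2% of all genes did.

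In 4F kidney the arms of the members named here overlapped. Col4a1 had 167, 262 and 329 CPM in treated 4F kidneys, against 217, 191 and 206 CPM in untreated 4F kidneys, and Col4a2 had 156, 196 and 255 CPM in treated 4F kidneys, against 166, 199.5 and 157 CPM in untreated 4F kidneys. Both spread more among treated than among untreated libraries, with fold changes of 0.28 ± 0.19 and 0.23 ± 0.13 (log2). The glomerular chains Col4a3 and Col4a4 had fold changes of 0.22 ± 0.23 and -0.0033 ± 0.13 (log2, edgeR adjusted p = 0.941 and 0.999). Col5a2 had 10.5, 30.4 and 23.2 CPM in treated 4F kidneys, against 29.7, 62.1 and 16.7 CPM in untreated 4F kidneys (-0.70 ± 0.22 log2, unadjusted p = 0.0115). Col6a2 had 15.8, 32.4 and 55.6 CPM in treated 4F kidneys, against 20.5, 29.2 and 15.2 CPM in untreated 4F kidneys (0.61 ± 0.24 log2). Neither separated the arms. Col1a1 had 18.3, 24.5 and 27.1 CPM in treated 4F kidneys, against 17.8, 13.2 and 22.8 CPM in untreated 4F kidneys (0.40 ± 0.23 log2) and Col3a1 32.4, 62.1 and 52.9 CPM in treated 4F kidneys, against 43.9, 14.5 and 47.2 CPM in untreated 4F kidneys (0.47 ± 0.43 log2), with untreated replicate 2 the lowest for both. Without the filter on low counts 3 members of 44 passed in 4F kidney, where 0.971% of all genes did: Col5a2 (edgeR adjusted p = 0.00348), Col6a2 (0.0127) and Col15a1 (0.0470), the last with 22.6, 47.9 and 54.6 CPM in treated 4F kidneys, against 44.3, 7.86 and 29.0 CPM in untreated 4F kidneys. In B6 kidney Col4a2 had 176 and 149 CPM in treated B6 kidneys, against 202 and 237 CPM in untreated B6 kidneys and Col4a1 had 223 and 183 CPM in treated B6 kidneys, against 263 and 321 CPM in untreated B6 kidneys. The B6 arms did not overlap for either, with fold changes of -0.37 ± 0.16 and -0.45 ± 0.23 (log2, adjusted p = 0.988 for both, edgeR). Col1a1 had 35.8 and 29.5 CPM in treated B6 kidneys, against 42.4 and 41.0 CPM in untreated B6 kidneys (-0.29 ± 0.27 log2) and did not overlap, and Col3a1 had 60.1 and 63.1 CPM in treated B6 kidneys, against 65.8 and 58.5 CPM in untreated B6 kidneys (0.047 ± 0.51 log2) and did.

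In lung no member reached an unadjusted p under 0.05 in either genotype. Col4a5 had 69.5, 40.2 and 43.8 CPM in treated 4F lungs, against 56.2, 97.4 and 93.3 CPM in untreated 4F lungs (-0.65 ± 0.29 log2), Col23a1 had 92.8, 41.8 and 53.6 CPM in treated 4F lungs, against 49.6, 138 and 93.6 CPM in untreated 4F lungs (-0.60 ± 0.37 log2), Col17a1 had 4.45, 1.16 and 4.09 CPM in treated 4F lungs, against 2.98, 22.0 and 3.92 CPM in untreated 4F lungs (-1.43 ± 0.90 log2), and Col8a1 had 12.0, 6.75 and 5.59 CPM in treated 4F lungs, against 7.11, 20.3 and 17.3 CPM in untreated 4F lungs (-0.87 ± 0.41 log2). Untreated replicate 2 was the highest untreated library for all 4, and without it the fold changes were -0.36 for Col4a5, -0.28 for Col8a1, 0.024 for Col23a1 and 0.026 for Col17a1. Col1a1 had 89.3, 149.8 and 101 CPM in treated 4F lungs, against 128, 88.5 and 81.6 CPM in untreated 4F lungs (0.27 ± 0.46 log2, 0.11 without that library). Col3a1 had 141, 446 and 192 CPM in treated 4F lungs, against 444, 158 and 229 CPM in untreated 4F lungs (-0.069 ± 0.65 log2, -0.49 without it), and Col4a1 448, 645 and 587 CPM in treated 4F lungs, against 305, 695 and 435 CPM in untreated 4F lungs (0.28 ± 0.45 log2, 0.65 without it). The arms of these 3 overlapped. In B6 lung each arm had 1 high and 1 low library for the major chains: Col1a1 had 293 and 134 CPM in treated B6 lungs, against 104 and 302 CPM in untreated B6 lungs, Col3a1 had 595 and 211 CPM in treated B6 lungs, against 213 and 642 CPM in untreated B6 lungs, and Col4a1 had 1095 and 577 CPM in treated B6 lungs, against 492.6 and 1029.5 CPM in untreated B6 lungs. The fold changes were 0.071 ± 0.56, -0.083 ± 0.79 and 0.14 ± 0.55 (log2). The high treated and the high untreated library are the most similar pair named above. The members of smallest p, Col28a1 with 2.45 and 2.31 CPM in treated B6 lungs, against 0.600 and 2.20 CPM in untreated B6 lungs (0.75 ± 0.68 log2) and Col6a2 with 160.2 and 162 CPM in treated B6 lungs, against 129 and 158 CPM in untreated B6 lungs (0.16 ± 0.22 log2), did not overlap. These members were picked by their p, so this separation is not a further result.

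Between genotypes, the difference of the doxycycline effects was tested directly. At an unadjusted p under 0.05 the difference was called for 17 of 224 member tests, where 4.68% of all gene tests were called, and 11 of those 17 were in liver (11 of 33 members, where 9.93% of liver genes were called). The liver difference shares the untreated B6 replicate 2 described above. None passed adjustment.

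Col14a1 was followed over tissues because it had the smallest p in 4F muscle, where DESeq2 called it. In 4F spleen it had 127, 88.4 and 110.2 CPM in treated 4F spleens, against 87.4, 25.7 and 74.7 CPM in untreated 4F spleens (0.84 ± 0.39 log2), and in 4F liver 46.4, 44.8 and 93.7 CPM in treated 4F livers, against 35.8, 11.3 and 32.2 CPM in untreated 4F livers (1.17 ± 0.69 log2). The arms did not overlap in either tissue, and the adjusted p was 0.991 in spleen and 1.00 in liver (edgeR). Without untreated replicate 2, which stood apart and was the lowest, the spleen fold change was 0.49. In 4F skin it had 81.6, 19.0 and 24.0 CPM in treated 4F skin, against 99.3, 4.41 and 26.8 CPM in untreated 4F skin, so replicate 1 was high in both arms and untreated replicate 2 low. The skin fold change was -0.16 ± 1.05 (log2); without untreated replicate 1 it was 2.19 and passed, with an adjusted p of 0.0354 (edgeR). In 4F lung and kidney the fold changes were -0.31 ± 0.27 and 0.32 ± 0.37. Without untreated 4F lung replicate 2, which stood apart, the lung value was -0.61. In B6 mice the fold changes were 0.26 ± 0.44 in muscle, -0.16 ± 0.47 in spleen, -1.35 ± 0.84 in liver, 0.12 ± 0.44 in kidney, -0.0041 ± 0.32 in lung and -0.44 ± 1.18 in skin. The B6 liver value turned to 0.29 without untreated B6 liver replicate 2, which stood apart. Col14a1 was chosen here for its value in muscle, so its other tissues are given as a description.

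The genes that make, trim, bind and break down collagen were set beside the chains, as lists of which no member passed the adjusted edgeR test in any tissue or genotype. In 4F muscle the collagen-binding proteoglycans and fibril partners were above 0 in 8 of 8 (median 1.017), with the small leucine-rich proteoglycan Bgn at 77.2, 108 and 94.5 CPM in treated 4F muscles, against 58.8, 48.1 and 54.1 CPM in untreated 4F muscles (0.87 ± 0.17 log2). This list shares at least Dcn with the fibroblast markers given above, so the counts of the lists are not wholly separate. Procollagen processing and cross-linking genes were above 0 in 12 of 12 (median 0.83), with the procollagen C-proteinase enhancer Pcolce2 at 10.7, 4.65 and 7.01 CPM in treated 4F muscles, against 1.88, 1.599 and 5.00 CPM in untreated 4F muscles (1.61 ± 0.29 log2). The chains' own modifying enzymes and chaperones in the endoplasmic reticulum were not on one side, with 10 of 17 above 0 and a median of 0.042. Collagenases and other turnover genes had 7 of 12 above 0 (median 0.22); the membrane collagenase Mmp14 was at -0.85 ± 0.27 log2. Collagen receptors had 5 of 8 (median 0.13), laminins and other basement membrane genes 11 of 13 (median 0.37) and genes of TGF-beta ligands and targets 6 of 9 (median 0.19).

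In 4F liver the same lists had 10 of 10 turnover genes (median 0.59), 8 of 8 receptors (median 0.37), 9 of 11 processing genes (median 0.70) and 14 of 17 modifying enzymes (median 0.30) above 0. Serpinh1, the collagen-specific chaperone Hsp47, had 17.5, 25.7 and 46.7 CPM in treated 4F livers, against 12.97, 7.27 and 13.9 CPM in untreated 4F livers (1.30 ± 0.63 log2). In B6 liver the medians were -2.17 for turnover, -1.28 for processing and -1.08 for modification, in the comparison that holds untreated B6 replicate 2. In spleen, kidney and lung of 4F mice the medians of these 4 lists lay between -0.094 and 0.31. The lists in 4F skin, and the remaining lists outside 4F muscle, are not given here. Nor is the share of all genes with fold changes above 0 given beside these counts, which carry no test.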

How the data were processed

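Raw counts per Ensembl gene were deposited by the authors for 60 libraries, made from RNeasy-extracted total RNA with TruSeq Stranded Total RNA kits, with genome build GRCm38, per the labels and the submitters' processing notes; the sources used here do not give the aligner, counter, annotation release or strand setting. Symbols, positions and union exon lengths came from GENCODE vM21. Library totals of 18517963 to 43176392 counts limit precision. The limit given for genes without a count covers counting error only. The SD and SE values include the spread between libraries. Each edgeR SE was taken from the test, as the absolute log2 fold change over the square root of the quasi-likelihood F statistic. It is therefore not a measure separate from the p-value.

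Each tissue was fitted alone in edgeR 4.0.16 (R 4.3.3): filterByExpr (count minimum 10, total minimum 15), TMM, robust quasi-likelihood, the 4 arms and sex, with Benjamini-Hochberg adjustment over all genes. Tissues were compared in 1 fit of 60 libraries with tissue, arm and sex. The edgeR fits were tested on simulated data for the 4F comparison of each tissue and for skin against the other tissues. The other comparisons and steps were not simulated. DESeq2 1.42.0, other scaling, no filter, no sex term, 1 genotype alone, untreated libraries only, left-out libraries and, added later, a serial block term were the alternatives.

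Col1a1, Col3a1 and Col4a1 were named in every tissue, with up to 4 members per tissue in 4F and 2 in B6 mice by smallest p (mean of at least 1 CPM), the 3 highest members of each tissue, members at least 4 times higher in 1 tissue than the next, and genes of smallest p in each list; Col14a1 in other tissues and the other members were added after values were seen. The members, lists and libraries set aside were chosen with earlier results of these data known. A gene of the TGF-beta list is not reported here.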

Additional observations from a re-analysis of the deposited data

Results flagged for a closer look

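In liver, untreated B6 replicate 2 lay far from the other 9 libraries by Dixon's test at the 95% level. The chance rate of this test is about 1 in 20 groups, and each group was tested at its highest and at its lowest value. The 118 tests counted in this way gave 9 such values, most of them in this library. Fibrillar chains took 0.161% of its counts, against 0.0093% to 0.0326% in the others, basement membrane chains 0.0651% (others 0.0032% to 0.0127%) and FACIT chains 0.0289% (others 0.0029% to 0.011%). Col3a1 stood at 68.7 RPKM (others 0.494 to 10.6), Col1a1 at 51.7 (others 0.125 to 4.83) and Col4a1 at 53.0 (others 1.78 to 10.1). Col18a1 was the lowest there at 52.6 RPKM, where the others held 107 to 157. Fibroblast markers in that library summed to 994 CPM and hepatocyte markers to 52872 CPM; their part in these values was not tested.

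In muscle, treated 4F replicate 1 had 9.19 RPKM of Col1a1, where the other 9 libraries held 0.678 to 4.75. In kidney, untreated 4F replicate 2 had 1.54 RPKM of Col26a1, where the others held 0.371 to 0.909.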

How the results depend on the processing

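No paired analysis was possible because the titles carry serial library numbers that tie no libraries across arms. Of 351 recomputed counts of called members 342 equalled the reported one or stayed within 1.5 times of it. No member was called in any doxycycline comparison, so most of these matches set no call against no call. No collagen chain was called in 4F kidney, but 3 were without the filter on low counts (Col15a1, Col5a2 and Col6a2); DESeq2 called Col14a1, 1 member, in 4F muscle, and Col14a1 was the 1 called in 4F skin without the untreated library that stood apart. With untreated libraries only, 8 members were lower in kidney (15 with all) and 3 in skin (5 with all). The 4F liver median was 0.49 and became 0.28 without the filter and 0.26 with 4F libraries alone. Without the untreated libraries that stood apart, the median was 0.11 in B6 liver, 0.43 in 4F muscle and 0.98 in 4F skin.

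With 1 library left out in turn, called members ranged from 0 to 16 in B6 liver and 0 to 20 for the liver difference (both highest without untreated B6 replicate 1, which leaves untreated B6 replicate 2 alone in its arm, assumed to vary like the other groups), and 0 to 1 in 4F skin and in B6 spleen. The median of all members ranged from -1.08 to 0.11 in B6 liver, -0.28 to 0.17 in 4F lung, 0.023 to 0.23 in B6 lung, 0.41 to 0.96 in 4F muscle, -0.006 to 0.71 in B6 muscle, -0.20 to 0.98 in 4F skin, -0.56 to 0.46 in B6 skin and -0.058 to 0.63 in B6 spleen. Because sex is in the model, a fit without either 4F male compares 2 female libraries with 2.

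Directions turned without the untreated libraries that stood apart. In B6 liver the log2 values were then 0.66 for Col1a1, 0.28 for Col1a2, 0.11 for Col3a1, 0.15 for Col4a1 and 0.29 for Col14a1. In 4F lung they were 0.024 for Col23a1 and 0.026 for Col17a1, and in 4F skin 2.19 for Col14a1. Col3a1 turned to -0.40 in 4F spleen and Col1a1 to -0.13 in B6 spleen. Without the sex term Col3a1 in 4F lung turned to 0.035. Across tissues, Col4a2 in muscle turned to -0.093 in untreated libraries only, and without the 6 libraries Col4a1 in muscle turned to 0.0496 and Col1a1 in spleen to 0.39. The ranges of log2 fold changes that turned with 1 library left out follow, for members other than Col14a1. In 4F kidney they were -0.028 to 0.95 for Col3a1. In B6 kidney they were -0.095 to 0.22 for Col3a1. In B6 liver they were -4.29 to 0.28 for Col1a2, -4.91 to 0.66 for Col1a1, -3.99 to 0.11 for Col3a1 and -3.12 to 0.15 for Col4a1. In 4F lung they were -0.89 to 0.024 for Col23a1, -2.18 to 0.026 for Col17a1, -0.62 to 0.31 for Col3a1 and -0.033 to 0.65 for Col4a1. In B6 lung they were -0.0079 to 0.36 for Col6a2, -0.67 to 1.09 for Col1a1, -1.09 to 0.98 for Col3a1 and -0.46 to 0.82 for Col4a1. In B6 muscle they were -0.33 to 1.94 for Col1a1, -0.73 to 2.20 for Col3a1 and -0.26 to 0.18 for Col4a1. In 4F skin they were -0.12 to 2.71 for Col1a1, -0.57 to 3.23 for Col3a1 and -0.17 to 2.60 for Col4a1. In B6 skin they were -1.601 to 1.597 for Col1a1, -1.49 to 1.40 for Col3a1 and -2.28 to 0.082 for Col4a1. In 4F spleen they were -0.69 to 0.53 for Col1a1 and -0.40 to 0.88 for Col3a1. In B6 spleen they were -0.13 to 0.26 for Col1a1 and -0.47 to 0.35 for Col3a1. The cause was not tested beyond the library left out. Other scaling moved the collagen members by a median of at most 0.0613 on the log2 scale in any comparison.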

Other observations

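Among the 3 untreated 4F libraries of each tissue, replicate 2 was the lowest for Col3a1, Col14a1, Col15a1, Col1a2 and Col6a3 in 6 of 6 tissues, of 32 members tested in all 6; replicate 1 was so for Col13a1, and replicate 3 for none. Over the 224 pairs of a member and a tissue, untreated replicate 2 was the lowest of its arm in 49.6%, replicate 1 in 28.1% and replicate 3 in 22.3%. In the treated 4F arm the shares were 33.5%, 37.1% and 29.5% for replicates 1, 2 and 3. There no replicate number was the lowest for any member in all 6 tissues. The same shares over all genes are not given here. Members are measured in the same libraries, so these counts carry no test and are not read as a trait of collagens. Within an arm, the libraries of 1 replicate number carry 6 consecutive serial numbers in their titles, and nothing in the labels says that they come from 1 mouse.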
